A study of Mus musculus with 6 samples.

Results

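The genes described here are 10 regulators and effectors of the integrated stress response and the unfolded protein response in mouse liver: Atf4, Atf5, Atf6, Ddit3, Trib3, Asns, Chac1, Ppp1r15a, Xbp1 and Herpud1. Where several probe sets were annotated to a gene alone, the one with the highest average signal stood for it, and all 10 were found among the 17097 genes measured. The arrays were made from remnant liver taken 12 h after removal of 70% of the liver (partial hepatectomy, PHx), from 3 wildtype mice and from 3 mice labelled DeltaKlf6, in which the zinc-finger transcription factor Klf6 was deleted in hepatocytes. Both groups are of the C57Bl/6 strain, both had the operation, and each array is 1 animal out of 6 per group in the overall study. The labels give neither the age of the mice nor the promoter that drives the deletion, and no liver without surgery is among the arrays, so the values show stress genes after PHx and not their change from the resting liver. Expression is given as log2 values, on which a difference of 1 is a doubling.

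In the integrated stress response, kinases that sense amino acid shortage, a misfolding endoplasmic reticulum (ER), viral RNA or lack of haem phosphorylate the translation factor eIF2. Most protein synthesis then slows, while the mRNAs of Atf4, Atf5 and Ddit3 are translated better, and these factors switch on genes of amino acid supply, redox balance and feedback. In the unfolded protein response the ER sensors PERK, IRE1 and ATF6 act through eIF2, through splicing of the Xbp1 mRNA and through cleavage of ATF6 itself. Phosphorylation, splicing and cleavage are not read by an expression array, which measures mRNA abundance. Hepatocytes secrete large amounts of protein and depend on these pathways to match folding capacity to load.

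Several of these genes are classical targets of ATF4 and ATF6, and the DNA letters that such factors are known to bind were searched in the RefSeq promoters (GRCm38.p6) of the genes, 250 bases before to 50 after the annotated start. Promoters were found for 9 of the 10 genes, all but Atf6. The stretches with a match are shown because ATF4 and ATF6 are known to act through such letters. They are written 5' to 3' in the orientation of the gene, with the match in capitals:
Asns: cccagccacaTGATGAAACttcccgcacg
Chac1: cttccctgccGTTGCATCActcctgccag
Herpud1: accacggcggGTTGCATCAgcccgcaccc
Herpud1, ERSE-II: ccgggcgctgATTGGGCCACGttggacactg
Trib3: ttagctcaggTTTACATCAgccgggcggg

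The C/EBP-ATF response element (CARE), searched as TGATGNAAN on both strands, matched in the promoters of 4 genes. In Asns it lies on the gene's own strand at positions -23 to -15 from the start (chr6:7693214-7693242 for the printed stretch, minus strand). It lies on the opposite strand at -194 to -186 in Chac1 (chr2:119351038-119351066, plus strand) and at -113 to -105 in Herpud1 (chr8:94386306-94386334, plus strand). In Trib3 it is on the opposite strand and inside the annotated transcript, at positions 14 to 22 (chr2:152344029-152344057, minus strand). The same pattern, in which 2 positions (N) may be any base, occurs in 3.95% of all 32851 promoters of this length. Herpud1 also holds the ER stress response element II (ATTGG and CCACG with 1 base between them) at -52 to -42 (chr8:94386367-94386397), which occurs in 0.0365% of promoters and does not overlap its CARE match. The ER stress response element (CCAAT and CCACG with 9 bases between them; 0.119% of promoters) and the XBP1-binding letters TGACGTGG (0.676%) matched in 0 of the 9 genes. A match is a run of letters and not a measured binding site, and a missing match says only that the letters are not in this window.

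Klf6 itself was above wildtype in 1 DeltaKlf6 library, and in the others it was not below wildtype on every probe set. In DeltaKlf6 1 its 3 probe sets read 5.81, 5.88 and 7.03, above every wildtype value of the same probe set (highest 4.03, 4.44 and 5.20). The lowest wildtype values were 3.41, 3.73 and 4.43. The readings for DeltaKlf6 2 were 2.82, 4.12 and 4.61, the first below the wildtype range and the others inside it. Those for DeltaKlf6 3 were 2.83, 3.74 and 3.15, with the middle one inside the wildtype range and the others below it. Which part of Klf6 these probe sets read relative to the deletion is not known here, and 0 of the 3 passed the test of the groups. The library labelled DeltaKlf6 3 had an upper quartile of 5.08 (5.50 to 5.63 in the other 5 arrays), hybridization controls at a mean of 11.02 (9.66 to 10.13 in the others) and a Gapdh 3' minus 5' gap of 4.83 (4.06 to 4.43 in wildtype). Its actin gap of 5.05 lay inside the wildtype range (4.86 to 5.39). Both actin signals of that library were nevertheless below every wildtype array, at 10.74 (3', wildtype 11.31 to 11.42) and 5.69 (5', wildtype 5.91 to 6.57). DeltaKlf6 1 and 2 lay below every wildtype array in both gaps, at 3.47 and 3.45 for Gapdh and at 4.22 and 3.998 for actin. All directions below are therefore between libraries as labelled.

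The hepatocyte genes Alb and Ttr, chosen after their values were seen, were high in all 6 livers, at 12.52 to 13.33 and 13.21 to 13.29. Apob, of the same list, read 3.29 to 5.26. The hepatocyte list (10 of 10 measured) had a summed signal of 15.93 to 16.001 in wildtype and 15.81 to 16.17 in DeltaKlf6 (log2 of the sum). In the same order, Kupffer cell and macrophage genes (10 of 10) read 11.37 to 11.56 and 11.49 to 12.17, endothelial genes (9 of 9) 10.93 to 11.03 and 10.76 to 10.94, and stellate cell and fibroblast genes (8 of 8) 10.004 to 10.40 and 9.37 to 10.72. The highest macrophage value was in the library labelled DeltaKlf6 2 and the lowest stellate value in DeltaKlf6 3. These sums are carried by the brightest genes. The mean log2 deviation from wildtype for hepatocyte genes was 0.21, 0.35 and -0.26 in DeltaKlf6 1, 2 and 3 (wildtype -0.02 to 0.02). In the same order it was 0.07, 0.76 and -0.06 for macrophage genes (-0.22 to 0.15). For endothelial genes it was -0.03, 0.04 and -0.40 (-0.12 to 0.09), and for stellate genes 0.23, 0.47 and -0.53 (-0.12 to 0.18). The array lists no value at 0, and 0 of the 70 measured marker genes of 10 lists passed the test. The part of cell makeup in the values below was not tested, and in whole liver fewer cells of a type and less RNA per cell cannot be told apart.

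No regulator separated the groups. Of the 10 genes, 7 had a lower and 3 a higher mean in DeltaKlf6, where 51.6% of all genes had a lower one, and their median log2 difference was -0.22 against -0.01 over all genes. By limma 0 of the 10 passed an adjusted p of 0.05 (0% of all 17097 genes did), with adjusted p between 0.992 and 0.998, and 0 of the 10 had an unadjusted p under 0.05 (3.69% of all genes). Groups of 3 without overlap were found for 0 of the 10, against 9.32% of all genes (5.91% lower and 3.41% higher in DeltaKlf6). The median SD of the 10 was 0.28 in wildtype and 0.72 in DeltaKlf6, against 0.24 and 0.35 over all genes. The SD was larger in DeltaKlf6 for 8 of the 10 and for 68.1% of all genes.

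**Figure D1:**
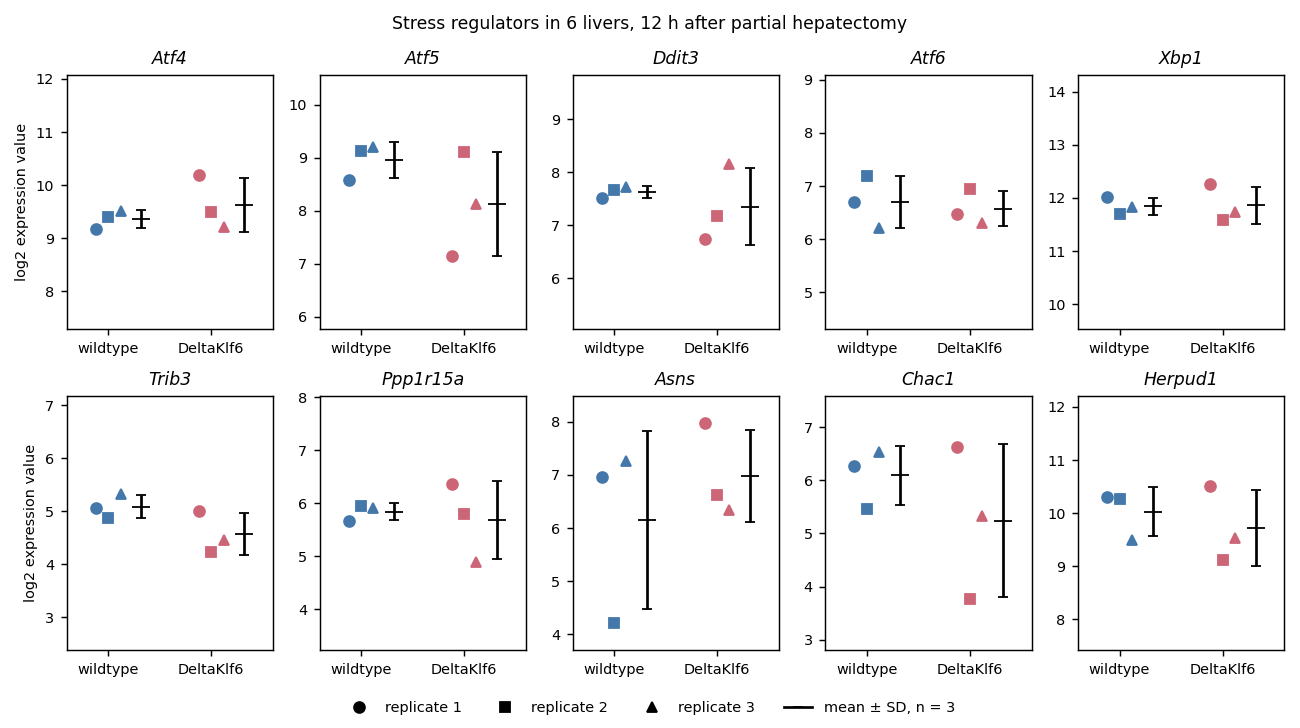
Log2 expression value (vertical axis, with the same span in each panel, centred on the gene) of the 10 stress regulators in each of 3 wildtype (blue) and 3 DeltaKlf6 (red) livers, with the marker shape giving the replicate number and the black bar the mean ± SD. The groups overlap in every panel, and single livers stand far from their group in Asns (wildtype 2, 4.22) and Chac1 (DeltaKlf6 2, 3.76).

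The transcription factors come first. Atf4, the central effector of the integrated stress response, was at 9.18, 9.40 and 9.52 in wildtype 1, 2 and 3 and at 10.19, 9.48 and 9.21 in the libraries labelled DeltaKlf6 1, 2 and 3. The library labelled DeltaKlf6 1 alone lay above the wildtype range, and the other pair lay inside it. The means were 9.37 ± 0.17 and 9.63 ± 0.51 (SD, n = 3 each), a difference of 0.26 (SE 0.29, 95% interval -0.40 to 0.93). Leaving out that library, the one with high Klf6, gave an Atf4 difference of -0.02.

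Atf5, a relative of Atf4 that is translated under the same conditions and is abundant in liver, was low in that library. Its values were 8.57, 9.13 and 9.20 in wildtype and 7.14, 9.11 and 8.13 in DeltaKlf6. The libraries labelled DeltaKlf6 1 and 3 lay below every wildtype array, and DeltaKlf6 2 lay among them. The group means were 8.96 ± 0.34 and 8.13 ± 0.98 (n = 3 each), a difference of -0.84 (SE 0.47, interval -1.92 to 0.24) or a linear ratio of 0.56 (0.26 to 1.18). In size this difference exceeded that of 97.6% of all genes, and its DeltaKlf6 SD that of 93.6% of genes. Leaving out the library labelled DeltaKlf6 1 gave -0.35, and leaving out DeltaKlf6 2 gave -1.33.

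Ddit3, which encodes CHOP, the factor tied to cell death under lasting ER stress, was the most even of the 3 eIF2-controlled factors in wildtype. It was at 7.51, 7.66 and 7.73 there, an SD (0.11) larger than that of 15.5% of genes. In DeltaKlf6 it was at 6.73, 7.16 and 8.15, so that all 3 libraries left the wildtype range, the first pair downward and the library labelled DeltaKlf6 3 upward. The difference between the group means was -0.28 (SE 0.35, interval -1.10 to 0.53). Without the library labelled DeltaKlf6 3 it was -0.68, with limma's adjusted p at 0.477, the lowest for Ddit3 under the alternatives run (highest 0.9999), and without DeltaKlf6 1 it was 0.02.

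Atf6, the ER membrane factor that is cut in the Golgi to release its active part, was at 6.70, 7.19 and 6.22 in wildtype and 6.46, 6.94 and 6.31 in DeltaKlf6. On this probe set all 3 DeltaKlf6 values lay inside the wildtype range, for which Atf6 is the single example among the 10. The difference was -0.13 (SE 0.30, interval -0.83 to 0.57). Xbp1, whose spliced mRNA encodes the driver of ER expansion, was at 12.01, 11.70 and 11.83 in wildtype and 12.26, 11.59 and 11.74 in DeltaKlf6. On this probe set, its brightest, the difference was the smallest of the 10, at 0.02 (SE 0.25, interval -0.55 to 0.58). It turned to -0.01 when the arrays were quantile-normalized again. Whether any probe set separates spliced from unspliced Xbp1 is not given in the sources used here.

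**Figure D2:**
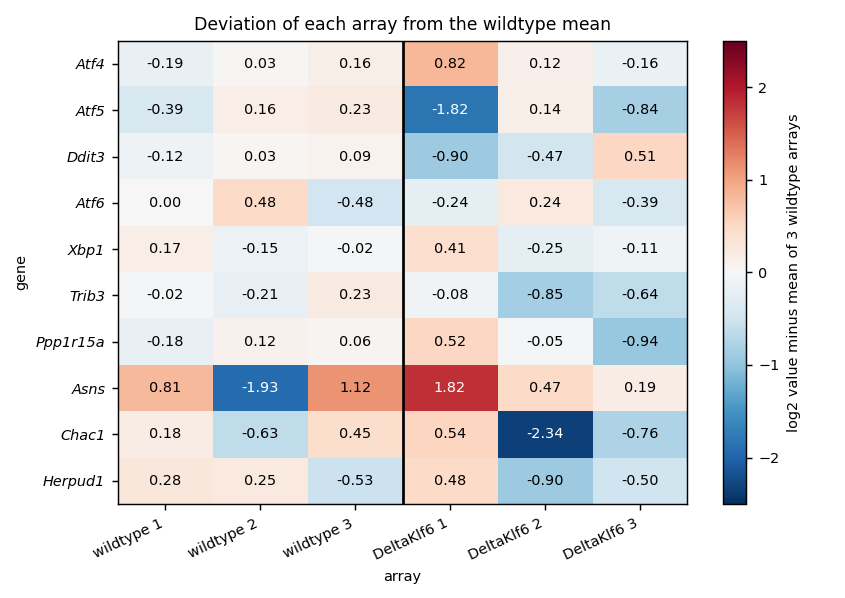
Log2 value of each gene (rows) in each array (columns) minus the mean of the 3 wildtype arrays, with red above and blue below it and the value written in each cell. In the column of DeltaKlf6 1, Asns (1.82) and Atf4 (0.82) stand above and Atf5 (-1.82) and Ddit3 (-0.90) below the wildtype mean, while in DeltaKlf6 2 the lowest value is Chac1 (-2.34).

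Feedback genes of the response were next. Trib3, a pseudokinase that ATF4 and CHOP induce and that restrains them, was at 5.07, 4.88 and 5.32 in wildtype and 5.01, 4.24 and 4.45 in DeltaKlf6. It was the 1 gene of the 10 below the wildtype mean in all 3 DeltaKlf6 libraries, as were 17.7% of all genes, and the library labelled DeltaKlf6 1 lay inside the wildtype range. The means were 5.09 ± 0.22 and 4.57 ± 0.40 (n = 3 each), a difference of -0.52 (SE 0.26, interval -1.13 to 0.09). Its sign was negative under each alternative run, from -0.74 without the library labelled DeltaKlf6 1 to -0.36 without DeltaKlf6 2.

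Ppp1r15a encodes GADD34, which brings a phosphatase to eIF2 and ends the response. It was at 5.66, 5.95 and 5.90 in wildtype and at 6.36, 5.79 and 4.89 in DeltaKlf6. The 3 DeltaKlf6 libraries lay above, inside and below the wildtype range, in that order, and the difference was -0.16 (SE 0.36, interval -0.99 to 0.68). Without the library labelled DeltaKlf6 3, whose value is the lowest, it was 0.24.

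Among the effectors, Asns, the asparagine synthetase that supplies asparagine from aspartate and a textbook ATF4 target, had the widest range of the 10. It was at 6.95, 4.22 and 7.27 in wildtype and 7.97, 6.62 and 6.34 in DeltaKlf6. The low value of wildtype 2 made its wildtype SD (1.68) larger than that of 99.96% of genes, and all 3 DeltaKlf6 libraries lay above the wildtype mean, as did 12.3% of all genes. The libraries labelled DeltaKlf6 2 and 3 nevertheless lay below both other wildtype arrays. The means were 6.15 ± 1.68 and 6.98 ± 0.87 (n = 3 each), a difference of 0.83 (SE 0.80, interval -1.02 to 2.67). Without wildtype 2 the difference was -0.14, so the direction rests on that array. Asns has 1 probe set, so the low value has no check from another.

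Chac1, an enzyme that breaks down glutathione and is induced by ATF4, was also below the other wildtype arrays in wildtype 2. Its values were 6.28, 5.47 and 6.54 in wildtype and 6.64, 3.76 and 5.33 in DeltaKlf6. All 3 DeltaKlf6 libraries left the wildtype range, DeltaKlf6 1 above and the others below. The difference was -0.85 (SE 0.66, interval -2.38 to 0.68), with a DeltaKlf6 SD (1.44) larger than that of 98.6% of genes. Leaving out the library labelled DeltaKlf6 2 gave -0.11, and leaving out DeltaKlf6 1 gave -1.55.

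Herpud1, an ER membrane protein that helps to export misfolded proteins for degradation, was at 10.31, 10.27 and 9.49 in wildtype and 10.51, 9.12 and 9.53 in DeltaKlf6. The library labelled DeltaKlf6 1 lay above and DeltaKlf6 2 below the wildtype range. The difference was -0.31 (SE 0.40, interval -1.22 to 0.61), and without DeltaKlf6 2 it was -0.01. The 4 genes with a CARE match in their promoter thus had no common direction: Asns was higher by group mean and Chac1, Herpud1 and Trib3 lower. In the library labelled DeltaKlf6 1, Asns, Chac1 and Herpud1 were above the wildtype range by 0.70, 0.09 and 0.20, while Trib3 was not.

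**Figure D3:**
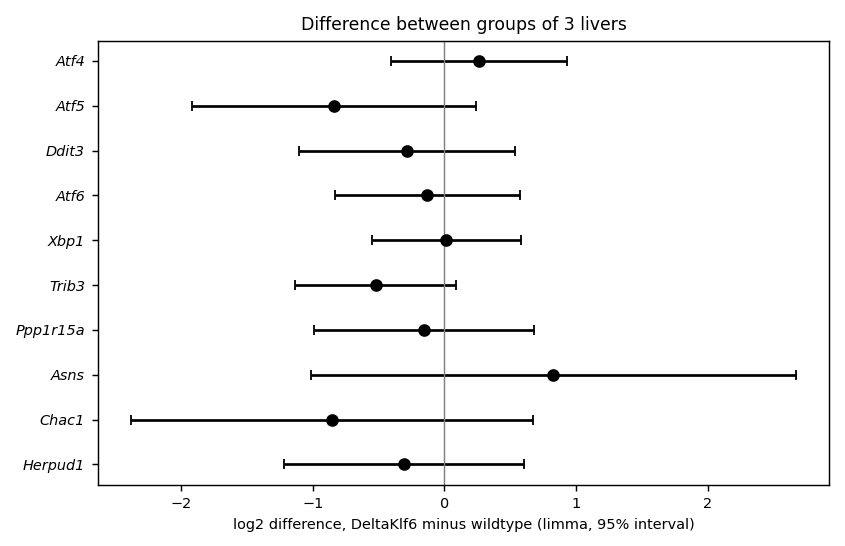
Difference of log2 group means, DeltaKlf6 minus wildtype (points, n = 3 each), with the 95% interval of the limma fit (bars) for the 10 genes. Every interval includes 0; the narrowest is that of Xbp1 (-0.55 to 0.58) and the widest that of Asns (-1.02 to 2.67).

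Read by array, the genes outside the wildtype range in the 3 DeltaKlf6 libraries were in part the same, and their direction often differed. Ddit3 and Chac1 lay outside it in all 3 libraries. The library labelled DeltaKlf6 1 had 6 of the 10 genes above the wildtype range (Atf4, Asns, Chac1, Ppp1r15a, Xbp1 and Herpud1), 2 below it (Atf5 and Ddit3) and 2 inside. DeltaKlf6 2 had 0 above, 5 below and 5 inside, and DeltaKlf6 3 had 1 above (Ddit3), 4 below and 5 inside. In all, 18 of 30 member values (60%) lay outside the wildtype range, and so did 59.3% of the values of all genes. Over all genes, 29.0% of the values were above and 30.9% below the wildtype range in DeltaKlf6 1, 28.0% and 27.6% in DeltaKlf6 2, and 27.2% and 35.1% in DeltaKlf6 3.

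Of these genes, 4 had more than 1 probe set, which checks the direction. The other Atf4 probe set, at 2.10 to 2.51 in wildtype, lies under the array medians (3.30 to 3.45), and its difference was 0.44 (SE 0.23). The other Atf6 probe set was at 6.09, 5.99 and 5.47 in wildtype and 7.09, 6.35 and 4.29 in DeltaKlf6, a difference of 0.06 against -0.13 for the chosen one. Thus the probe sets of Atf6 disagreed in sign, and on the other one every DeltaKlf6 value lay outside the wildtype range. The other Herpud1 probe set was at 9.80, 9.55 and 8.998 in wildtype and 9.61, 8.43 and 7.24 in DeltaKlf6. Its difference was -1.02 (SE 0.55), in the same direction as the -0.31 of the chosen probe set, with the libraries labelled DeltaKlf6 2 and 3 below every wildtype array and limma's adjusted p over all probe sets at 0.992.

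The 3 other Xbp1 probe sets had differences of 0.39, 0.33 and 0.58 (SE 0.27, 0.37 and 0.38). One of them, 1420012_PM_at, was at 7.44, 7.41 and 7.43 in wildtype and at 8.59 in the library labelled DeltaKlf6 3. Another, 1420886_PM_a_at, was at 9.23 to 9.77 in wildtype and at 10.89 in DeltaKlf6 1. All 4 Xbp1 probe sets were highest relative to wildtype in DeltaKlf6 1 or, for 1420012_PM_at, in DeltaKlf6 3.

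**Figure D4:**
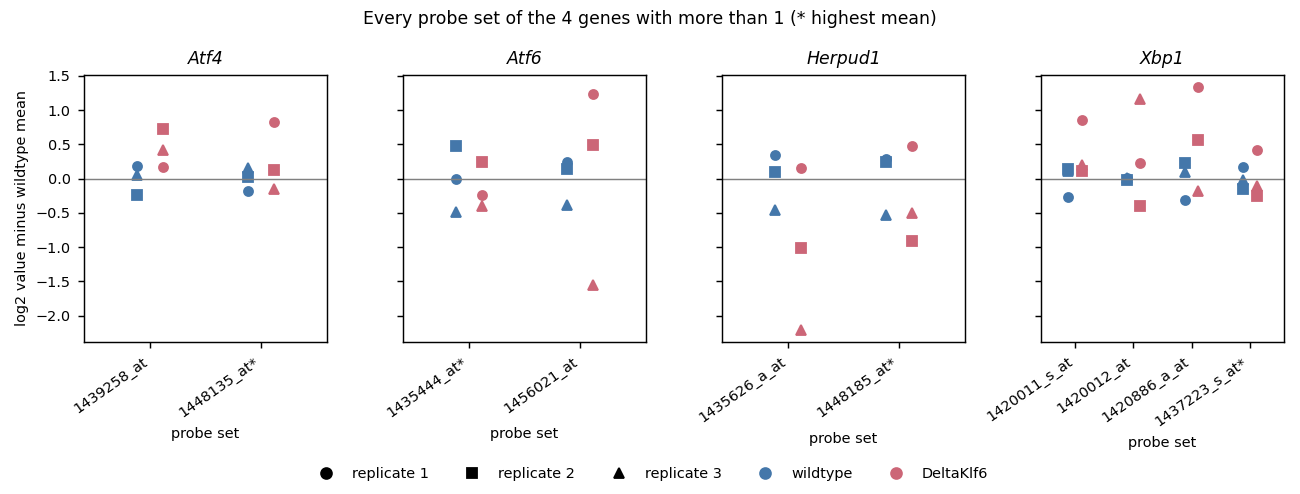
Log2 value minus the wildtype mean (vertical axis) for each probe set of Atf4, Atf6, Herpud1 and Xbp1, with 1 point per array, blue for wildtype and red for DeltaKlf6, and an asterisk on the probe set that represents the gene. For Atf6 the unstarred probe set spreads from 1.24 in DeltaKlf6 1 to -1.56 in DeltaKlf6 3, and for Herpud1 the unstarred one reaches -2.21 in DeltaKlf6 3.

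The wider pathway was read from 8 lists of 132 measured genes of 144 listed, besides the 10 genes above. Of these 132, 73 were higher and 59 lower by group mean, 0 passed limma's adjusted threshold (4 had an unadjusted p under 0.05), and the groups did not overlap for 10 of them, 5 higher and 5 lower, beside 9.32% of all genes. The median difference was 0.03. The 32 genes named from the lists are those with the smallest unadjusted p in each, and none passed. For 24 of them the difference moved by over 1.5 times when 1 array was left out, and for 12 under another alternative, so their sizes are uncertain.

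Upstream, the list of eIF2 kinases, eIF2 and its exchange factor had 11 of 14 genes higher and 3 lower (median 0.29, against -0.01 over all genes), with 0 past the threshold and 0 without overlap. Its named genes were Eif2ak2, the kinase that senses double-stranded RNA (0.39, SE 0.22), the exchange factor subunits Eif2b1 (0.53, SE 0.35) and Eif2b5 (0.37, SE 0.26), and the adaptor Nck1 (0.63, SE 0.44). Nck1 was at 0.19 with the mean of its probe sets, 0.24 without the library labelled DeltaKlf6 2 and 1.18 without DeltaKlf6 3. The wildtype values of Eif2ak2 and Eif2b5, 1.97 to 2.41, lie under the array medians. The list mean deviated from wildtype by 0.56 and 0.40 in the libraries labelled DeltaKlf6 1 and 2 and by -0.21 in DeltaKlf6 3. Without DeltaKlf6 1 there were 7 lower genes and without DeltaKlf6 3 there was 1.

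Downstream, the ATF4 and CHOP targets had 12 of 19 genes higher and 7 lower (median 0.01), with 0 past the threshold and 1 without overlap. That gene is Cebpg, which encodes a C/EBP factor that pairs with ATF4. It was at 8.53, 8.51 and 8.18 in wildtype and 6.42, 7.87 and 7.53 in DeltaKlf6, so that every DeltaKlf6 library lay below every wildtype array, DeltaKlf6 1 by the most. The difference was -1.14 (SE 0.37), with limma's adjusted p at 0.992. Gadd45a, a growth arrest gene, differed by 1.37 (SE 0.59) and Cth, the cystathionine lyase that makes cysteine, by 1.28 (SE 0.59). Without the library labelled DeltaKlf6 1 these differences were -0.71 for Cebpg, 0.65 for Gadd45a and 0.79 for Cth, and without DeltaKlf6 3 that of Cth was 2.04. Gadd45a was at 2.69, 3.53 and 2.82 in wildtype and 5.83, 3.98 and 3.34 in DeltaKlf6. Its wildtype 1 and 3 values lie under the array medians (3.30 to 3.45).

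Fgf21, a liver hormone gene that ATF4 and PPARA both drive, differed by -1.22 (SE 0.56). It was at 5.54, 3.32 and 5.47 in wildtype and 3.71, 3.68 and 3.28 in DeltaKlf6. Wildtype 2 and all DeltaKlf6 values lie near the array medians (3.30 to 3.45). As for Asns and Chac1, wildtype 2 was the lowest wildtype array, and here it lay with the DeltaKlf6 libraries; without it the difference was -1.95. Without the library labelled DeltaKlf6 1 the list had 11 lower genes, and without DeltaKlf6 2 it had 4.

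Genes of serine synthesis, one-carbon metabolism and amino acid transport had 8 of 12 higher and 4 lower (median 0.16), with 0 past the threshold. The transporters Slc7a5 (0.56, SE 0.35), Slc3a2 (0.53, SE 0.43) and Slc7a1 (0.46, SE 0.37) and the serine synthesis enzyme Phgdh (0.40, SE 0.28) were named by the rule. The list mean was 0.78 above wildtype in the library labelled DeltaKlf6 1, 0.00 in DeltaKlf6 2 and -0.19 in DeltaKlf6 3, against -0.03 to 0.05 in the wildtype arrays. Wildtype 2, with its low Asns, was at 0.05 in this list. Without DeltaKlf6 3 there was 1 lower gene.

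The cytosolic aminoacyl-tRNA synthetases, which charge tRNAs and many of which ATF4 induces, had 11 of 17 higher and 6 lower (median 0.06), with 0 past the threshold. Vars, the valyl enzyme, was at 4.64, 4.61 and 4.26 in wildtype and 5.14, 4.90 and 5.17 in DeltaKlf6, groups without overlap (0.57, SE 0.22). Rars differed by 0.77 (SE 0.40), Gars by 0.23 (SE 0.23) and Hars by -0.37 (SE 0.33).

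On the ER side, sensors and ER stress factors had 8 of 15 higher and 7 lower (median 0.10), with 0 past the threshold and 0 without overlap. Ern1, which encodes the Xbp1-splicing sensor IRE1, was at 8.09, 7.79 and 7.06 in wildtype and 5.63, 8.06 and 7.01 in DeltaKlf6 (-0.74, SE 0.58). Its low library was again DeltaKlf6 1. The kinase Map3k5 differed by -0.60 (SE 0.27), the membrane-bound factor Creb3l2 by 0.52 (SE 0.28) and Wfs1 by 0.64 (SE 0.50).

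ER chaperones and folding enzymes had 7 of 20 higher and 13 lower (median -0.03), with 0 past the threshold. Groups did not overlap for Fkbp2, a prolyl isomerase (0.67, SE 0.24), and Manf, a secreted ER stress protein (0.29, SE 0.21), both higher, and for Hyou1, a large ER chaperone (-0.56, SE 0.30), lower. Creld2 differed by -0.54 (SE 0.32), and its lowest library was DeltaKlf6 1 at 9.91 against 11.05 to 11.23 in wildtype. Without DeltaKlf6 3 the list had 6 lower genes in place of 13.

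ER-associated degradation genes, the machinery that Herpud1 serves, had 7 of 17 higher and 10 lower (median -0.15), with 0 past the threshold. Ufd1, a partner of the segregase that extracts substrates, was at 6.63, 6.92 and 6.22 in wildtype and 7.496, 7.58 and 7.14 in DeltaKlf6 (0.82, SE 0.26), without overlap. The mannosidase-like Edem3 was without overlap on the lower side (-0.36, SE 0.20). Erlec1 (0.28, SE 0.21) did not overlap either, and Sel1l, the scaffold of the ubiquitin ligase, differed by -0.40 (SE 0.37).

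Genes of ER translocation and export had 10 of 19 higher and 9 lower (median 0.03), with 0 past the threshold and 2 lower genes without overlap, the channel gene Sec61a1 (-0.25, SE 0.21) and, named after its value was seen, Ssr3 (-0.15, SE 0.19). The coat gene Sec23b differed by 0.73 (SE 0.41), Srprb by 0.38 (SE 0.26) and Ssr4 by 0.41 (SE 0.38). The list mean was 0.28 and 0.21 above wildtype in the libraries labelled DeltaKlf6 1 and 2 and -0.29 in DeltaKlf6 3. Without DeltaKlf6 3 there were 5 lower genes. In DeltaKlf6 3 the mean was below 0 in 7 of these 8 lists, the exception being the ATF4 and CHOP targets (0.00), while all genes tested had a mean of -0.08 there.

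**Figure D5:**
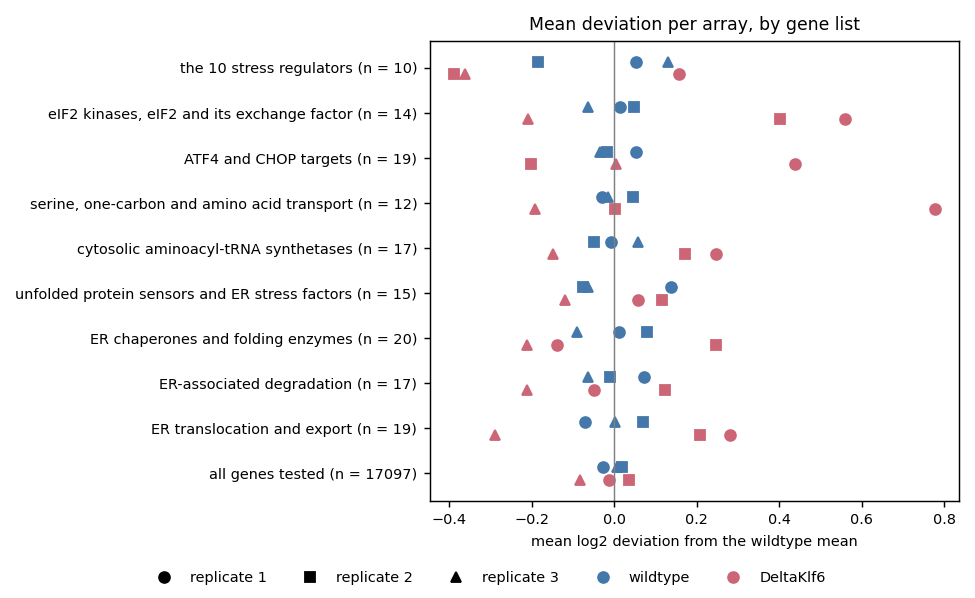
Mean over each gene list of the log2 deviation from the wildtype mean (horizontal axis), with 1 point per array, blue for wildtype and red for DeltaKlf6, the marker shape giving the replicate number. The 10 stress regulators averaged 0.16 in DeltaKlf6 1, -0.39 in 2 and -0.36 in 3, with wildtype arrays from -0.18 to 0.13, and the farthest point is DeltaKlf6 1 in the amino acid list (0.78).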

How the data were processed

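Total liver RNA (6 mice; TRIzol, then RNeasy) was labelled for Affymetrix 3' IVT arrays, as the labels' protocols state. The authors deposited log2 values summarised by RMA; the submitters' processing notes name Affymetrix Expression Console 1.2.1 for this step. That the log base is 2 was inferred from the highest value (13.95). Build and probe annotation of the authors: not given in the sources used here.

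Of 45141 probe sets, 28898 had 1 gene symbol in the platform annotation, 551 several and 15692 none; 104 were controls. Genes took the single-gene probe set of highest mean (17097 genes). Groups and replicate numbers came from the sample titles. The groups were compared by limma 3.58.1 under R 4.3.3 (lmFit, eBayes; genotype as the factor; two-sided; Benjamini-Hochberg over all genes, threshold 0.05). The Klf6 probe sets and the members' other probe sets were fitted over all single-gene probe sets. The calculation was tested on simulated data. The precision is limited by the number of arrays. The p-values rest on the spread between these arrays, which limma moderates across all genes. With 1 array per animal, spread between animals and spread between libraries cannot be told apart.

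The members and lists were chosen with earlier results of these data known. Of 144 pathway genes 132 were measured, 14 of the listed ones found through an older symbol or gene number. The rule for named genes took Klf6, all 10 members and, per pathway list, the 4 measured genes with the smallest unadjusted p; others are named as chosen after their values were seen. Of 10 marker lists, 6 are not given above (cholangiocyte, neutrophil, lymphocyte, erythroid, pancreatic acinar and adipocyte, with 33 of 43 genes measured). Their mean deviations were -0.26 to 0.34 in wildtype arrays and -0.35 to 0.37 in DeltaKlf6. The erythroid list (3 of 5 genes measured) was at 0.17, 0.25 and 0.21 in DeltaKlf6 1, 2 and 3. These values lay above every wildtype array (-0.03 to 0.03). In each of the others at least 1 DeltaKlf6 array lay inside the wildtype range.

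Alternatives were the mean of probe sets, other probe sets, shared probe sets or dim genes left out, quantile normalization or median centring again, a variance trend, robust variances (statmod 1.5.0), array weights, the replicate block and each array left out.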

Additional observations from a re-analysis of the deposited data

How the results depend on the processing

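Under all 15 alternatives 0 genes, 0 of the 10 regulators and 0 genes of the pathway lists passed limma's adjusted threshold, and 0 Klf6 probe sets did with each array left out. At an unadjusted p under 0.05 there were 631 genes, 909 with array weights, 1165 without the library labelled DeltaKlf6 2, 1546 without DeltaKlf6 3 and 379 without wildtype 3. The count of the 10 with a lower mean, an addition made after the data were seen, ran from 5 (without DeltaKlf6 3) to 8. Of 156 alternative values for the 10 genes 11 changed sign. With an array left out, differences ranged from -0.019 to 0.47 for Atf4, -0.37 to 0.11 for Atf6, -0.68 to 0.024 for Ddit3, -0.14 to 1.39 for Asns, -0.50 to 0.24 for Ppp1r15a and -0.18 to 0.15 for Xbp1. Atf5, Trib3, Chac1 and Herpud1 kept a negative sign throughout. Otherwise Ppp1r15a turned to 0.010 with array weights, Xbp1 to -0.010 when quantile-normalized again and Atf6 to 0.059 on its other probe set. The Xbp1 difference of 0.016 was 0.33 with the mean of probe sets and 0.58 without shared probe sets. With the mean of probe sets Erlec1 was at -0.14 and Sel1l at 0.0080. The Klf6 probe sets ranged, with an array left out, from -0.86 to 0.64, from -0.13 to 0.94 and from -1.03 to 0.91. Counts of lower genes also moved with the mean of probe sets in the list of eIF2 kinases (6 in place of 3) and with array weights in that of ER chaperones (7 in place of 13). Of 477 alternative values for the 32 named pathway genes, 475 kept their sign. The cause of these changes was not tested.

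Whether the replicate numbers pair the samples is not settled here. Deviations of same-numbered arrays from their group means correlated at -0.0049, 0.26 and 0.084 across genes. Wildtype 2 and 3 correlated best with their own number, wildtype 3 narrowly (0.084 against 0.074 with DeltaKlf6 1), and wildtype 1 did not. Such deviations cancel within each group of 3, so these correlations cannot decide the question. With the replicate block 0 genes passed, 703 had an unadjusted p under 0.05, Atf5 among them, and 7 of the 10 regulators were lower. Of the 10, an unadjusted p under 0.05 was also reached by Chac1 and Trib3 without DeltaKlf6 1, by Atf5 without DeltaKlf6 2 and by Ddit3 without DeltaKlf6 3, and by 0 under the other alternatives. Strong 3' bias of all arrays and 3 animals per group limit these comparisons.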

Other observations

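Some list genes outside the naming rule, chosen here after their values were seen, had 1 DeltaKlf6 library far from the rest. Psat1, an enzyme of serine synthesis, was at 4.04, 4.07 and 4.38 in wildtype and at 7.19, 3.40 and 3.29 in the libraries labelled DeltaKlf6 1, 2 and 3. Its difference between groups was 0.47 (SE 0.93), which describes none of the 3 libraries. Atf3, an early stress factor, was at 4.999, 4.55 and 4.48 in wildtype and 7.15, 4.72 and 4.67 in DeltaKlf6. Ddit4, an inhibitor of mTORC1 signalling, was at 6.15, 6.44 and 6.35 in wildtype and 7.53, 4.47 and 6.96 in DeltaKlf6, with the library labelled DeltaKlf6 2 low as it was for Chac1.

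Hspa5, which encodes the main ER chaperone BiP and is the usual readout of the unfolded protein response, was at 11.49, 11.44 and 11.26 in wildtype and 11.33, 11.42 and 11.46 in DeltaKlf6. The difference was 0.01 (SE 0.20, 95% interval -0.44 to 0.46), and the 6 livers lay within a narrow band. The libraries that were far apart for Chac1, Atf5 and Ern1 were thus close for Hspa5. Hspa5 was also chosen after its values were seen, and it does not stand for its list. Its DeltaKlf6 SD was 0.07, against a median of 0.32 in the list of ER chaperones and folding enzymes. In that list the DeltaKlf6 SD was 0.74 for Pdia4 and 0.63 for Creld2. Eif2ak3, which encodes the sensor PERK, was at 6.31, 6.36 and 6.37 in wildtype and 7.07, 7.01 and 5.66 in DeltaKlf6, outside the wildtype range in all 3 libraries and in both directions.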
